A study of Arabidopsis thaliana with 8 samples.

Results

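The genes described here are 41 nuclear genes of Arabidopsis thaliana that act in mitosis and cytokinesis. They were taken as a list of gene identifiers chosen by function, with earlier results of these data known, out of 32222 nuclear genes in the tables. Nuclei from seeds with globular embryos were sorted singly into 744 wells, 93 on each of 8 plates (3 wells gave no counts), and their RNA was measured with Smart-seq2, a full-length cDNA protocol without molecular identifiers. All plates hold 1 condition: Col-0 plants carrying pWOX2::H2B-GFP and pWOX2::tdTomato-RCI2b, in which the WOX2 promoter drives a nuclear GFP, recorded as wild type in genotype, with seeds taken about 72 h after pollination. Nuclei were sorted on GFP and on a DAPI gate over the diploid peaks before and after DNA replication, so nuclei with more DNA than that were not collected. Groups are shares of the sorted nuclei, not of the embryo. There is no treated or mutant group, and comparisons are therefore between groups of nuclei from the same plates, with the plate as the replicate.

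Of these wells, 534 had at least 100000 counts and 1000 detected features and were kept (46 to 83 per plate). They had a median of 453004 counts and 2470 features. A score over lists of marker genes, none of them a cell cycle gene, placed 101 nuclei in the suspensor, 48 in the root pole (quiescent center and columella initials), 66 in the seed coat and 152 in the embryo proper. The embryo proper holds 69 inner nuclei, 80 protoderm nuclei and 3 that lead in neither. A further 165 nuclei met no criterion and 2 scored as endosperm. These markers placed the nuclei, so their levels describe the groups and do not test them. Suspensor nuclei had a median of 7 of 13 suspensor markers, against 0 in embryo-proper nuclei, and embryo-proper nuclei had 7 of 16 protoderm markers, against 3 in suspensor nuclei. Single markers went against their list: PDF2 of the protoderm list had reads in 86.1% of suspensor nuclei, against 60.5% of embryo-proper nuclei, FDH of that list was found most often in the seed coat (81.8%), and MLP28 of the suspensor list was found in 42.6% of suspensor and 43.8% of root pole nuclei. Maternal transcripts were widespread. The seed coat gene BAN had reads in 98.5% of seed coat nuclei, in 59.4% of suspensor nuclei and in 65.1% of embryo-proper nuclei. A median of 4 of 15 seed coat markers was found in suspensor nuclei and 4 in embryo-proper nuclei, and the part of free maternal RNA in the results was not tested.

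Plant cells enter mitosis when A- and B-type cyclins activate cyclin-dependent kinases, among them the plant-specific B-type CDKs. Aurora kinases, spindle proteins and kinetochore proteins then align and pull the chromosomes, the spindle checkpoint holds division until they are attached, and the anaphase-promoting complex, with its CDC20 and CCS52 activators, degrades the cyclins. Cytokinesis follows by a phragmoplast, a plant structure of microtubules and vesicles that builds the new cell plate. Many of these genes are transcribed late in the cell cycle by MYB factors of the MYB3R family, which bind the mitosis-specific activator element with the core AACGG. In the globular embryo the cells of the embryo proper keep dividing, whereas the suspensor is a short file of cells that soon stops.

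Because the element is the known control site of many such genes, stretches that hold it are shown for 10 of the members that have it, read from the TAIR10.1 genome on the strand of the gene, 5′ to 3′. The core AACGG, or its reverse complement CCGTT, is in capitals. The stretches lie within 250 bases before the annotated start of CYCB1;1 (chr4:17624309-17624379, minus strand), CYCB1;2 (chr5:1861704-1861782, minus), CYCB1;3 (chr3:3627274-3627347, minus), CYCB2;1 (chr2:7663908-7664013, plus), CYCB2;2 (chr4:16901414-16901508, plus), CYCB2;3 (chr1:7137861-7137952, minus), TPX2 (chr1:951881-951945, minus), RSW7 (chr2:12270794-12270913, minus), PLE (chr5:20964622-20964672, minus) and HIK (chr1:6324379-6324399, minus).
CYCB1;1: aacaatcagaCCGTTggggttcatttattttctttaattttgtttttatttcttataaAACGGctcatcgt
CYCB1;2: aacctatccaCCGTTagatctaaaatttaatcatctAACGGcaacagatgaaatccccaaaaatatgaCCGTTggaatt
CYCB1;3: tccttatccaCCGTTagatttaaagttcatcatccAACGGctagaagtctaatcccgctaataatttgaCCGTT
CYCB2;1: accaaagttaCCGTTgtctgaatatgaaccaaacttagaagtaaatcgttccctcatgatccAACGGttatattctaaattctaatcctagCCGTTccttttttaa
CYCB2;2: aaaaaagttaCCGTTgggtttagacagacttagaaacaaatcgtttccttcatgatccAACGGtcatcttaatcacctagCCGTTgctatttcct
CYCB2;3: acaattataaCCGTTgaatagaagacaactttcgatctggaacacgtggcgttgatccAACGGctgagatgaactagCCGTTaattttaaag
TPX2: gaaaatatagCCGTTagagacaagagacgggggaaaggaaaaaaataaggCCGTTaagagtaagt
RSW7: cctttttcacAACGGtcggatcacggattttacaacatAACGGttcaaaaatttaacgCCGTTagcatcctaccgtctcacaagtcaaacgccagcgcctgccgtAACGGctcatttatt
PLE: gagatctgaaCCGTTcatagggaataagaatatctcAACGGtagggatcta
HIK: aaagaactagCCGTTagaggt
The core AACGG, searched on both strands over the 250 bases before the start, was found in 23 of the 41 members (56.1%) and in 20.6% of 27443 protein-coding nuclear genes. At least 2 cores were found in 26.8% of members and in 3.62% of all these genes. The longer form CNAACGG, which contains the core, was found in 34.1% of members and in 4.50% of all genes. The 3 cores of CYCB2;1, CYCB2;2 and CYCB2;3 stand in the same order and orientation, as do the 3 cores shown for CYCB1;2 and CYCB1;3. These genes are related to each other, so their matches are not separate observations. A match is a description of the letters in this window, and a member without one may have sites elsewhere.

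Over all kept nuclei each member was found in 4.31% to 30.9% of them. Levels are CPM, counts scaled to a total of 1000000 over nuclear genes, and, to compare genes, CPM per kilobase of the longest transcript. The highest level per kilobase was that of CCS52B (AT5G13840), an activator of the anaphase-promoting complex (chromosome 5, 4468508 to 4471466), at 242 CPM per kilobase. It was followed by CDC20.1, AT4G33270 (112), the chromosome protein gene 3xHMG-box1, AT4G11080 (107), the checkpoint gene MAD2, AT3G25980 (106) and CDC20.2, AT4G33260 (102), and then, after a gap, by the spindle assembly factor TPX2, AT1G03780 (43.4) and CYCB1;2, AT5G06150 (43.3). The mitotic syntaxin KN, AT1G08560 (34.5), the centromeric histone CENH3, AT1G01370 (31.4) and the microtubule bundling protein PLE, AT5G51600 (30.1) complete the first 10. The lowest were CYCB2;1, AT2G17620 (4.51) and CYCA2;3, AT1G15570 (3.99). The member found in most nuclei was MYB3R1 (AT4G32730), with reads in 30.9% of them, and POK1 (AT3G17360) and POK2 (AT3G19050), kinesins that guide the phragmoplast to the cortex, had reads in 30.5% each.

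**Figure D1:**
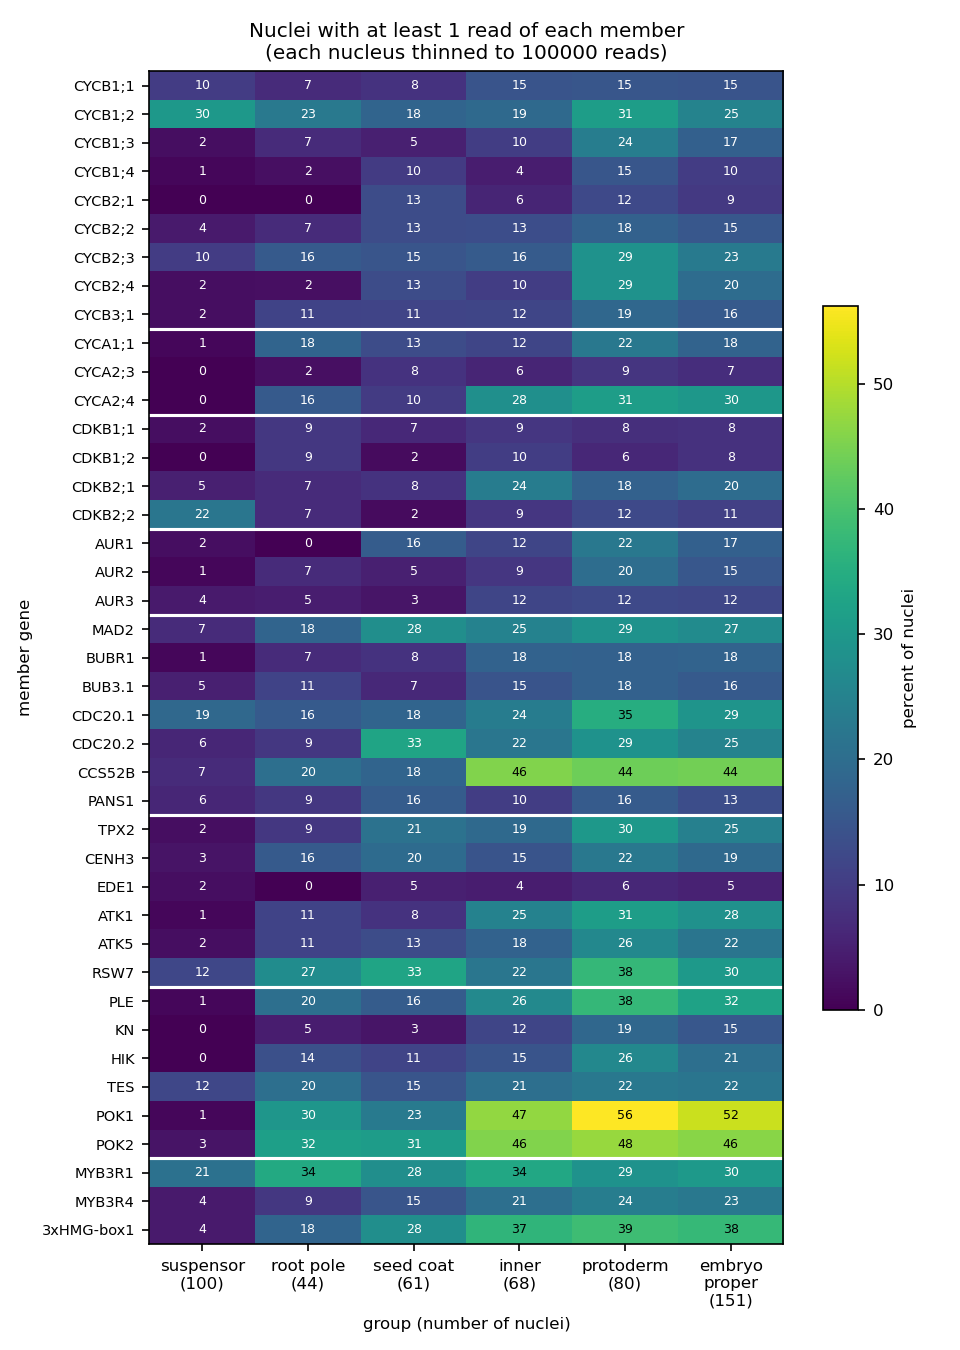
Share of nuclei (color and printed number, percent) with at least 1 read of each of the 41 members (rows, grouped by role between white lines) in suspensor, root pole, seed coat, inner, protoderm and all embryo-proper nuclei (columns, number of nuclei in parentheses), each nucleus thinned to 100000 reads. The suspensor column is dark but for CYCB1;2 (30%), CDKB2;2 (22%), MYB3R1 (21%) and CDC20.1 (19%), and POK1 is the brightest row in the embryo proper (51.7%).

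To compare groups at 1 depth, each nucleus was thinned to 100000 reads, which left 100 suspensor, 44 root pole, 61 seed coat and 151 embryo-proper nuclei. A member was then found in a median of 2% of suspensor nuclei, 9.09% of root pole nuclei, 13.1% of seed coat nuclei and 19.9% of embryo-proper nuclei. In the suspensor 39 of the 41 members were found less often than in the embryo proper, although a suspensor nucleus had more detected features (median 3281, against 2457 in the embryo proper) at nearly the same depth (median 544609, against 549379 counts). The exceptions were CYCB1;2 and CDKB2;2 (AT1G20930). CYCB1;2 was found in 30 of 100 suspensor nuclei (95% exact binomial interval 21.2 to 40%), against 25.2% of embryo-proper nuclei (18.5 to 32.9%). CDKB2;2 was found in 22% of suspensor nuclei (14.3 to 31.4%), against 10.6% of embryo-proper nuclei (6.18 to 16.6%). Such intervals hold the counting error alone and treat nuclei of the same plate as independent. How many of all genes were found less often in suspensor nuclei is not given here, and the median number of features does not give it. The count of 39 of 41 therefore describes the members without a background.

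The comparison of the suspensor with the embryo proper asks whether cells that leave division differ in these genes. In the suspensor 32 of the 41 members were lower and 0 were higher (edgeR quasi-likelihood test on counts summed per group and plate, plate as a block, Benjamini-Hochberg adjusted p under 0.05 over all genes). By an unadjusted p under 0.05, 38 were lower and 0 higher, against 2405 genes lower and 1443 higher of 18428. DESeq2 called 38 members lower and 0 higher, against 3351 genes lower and 1947 higher. By the adjusted p 5.62% of the 18428 genes tested were called lower and 3.88% higher. Summed over members, the level was between 122 and 821 CPM on the plates for the suspensor (median 558), against between 2277 and 9618 CPM for the embryo proper (median 6159), so the plates did not overlap. Over pooled nuclei the median member had a log2 ratio of −4.04 and the median gene one of 0.14, with a floor of 3 counts over a group in place of 0. The fitted log2 differences had medians of −8.98 over members and −0.59 over all genes. Fitted values of genes with no read on some plates depend on the prior count, so the pooled ratio is given as the size. The suspensor sums hold 5 to 30 nuclei per plate and those of the embryo proper 10 to 27. With equal numbers of nuclei drawn per plate 23 members were lower, all of them among the 32, against 2.86% of all genes called lower and 3.69% called higher. These were 3 of 9 B-type cyclins, 3 of 3 A-type cyclins, 0 of 4 B-type CDKs and 1 of 3 Aurora kinases. The others were 5 of 7 checkpoint genes and regulators of the anaphase-promoting complex and 4 of 6 spindle and kinetochore genes. To these came 5 of 6 phragmoplast and cytokinesis genes and 2 of 3 factors of transcription and chromatin. The split of higher and lower genes differed between the tests (715 and 1035 genes by the main test, 647 and 502 with equal numbers). Equal numbers, here and below, came from a single random draw, which also changed depth and the nuclei used. Which of these moved the split was not tested.

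**Figure D2:**
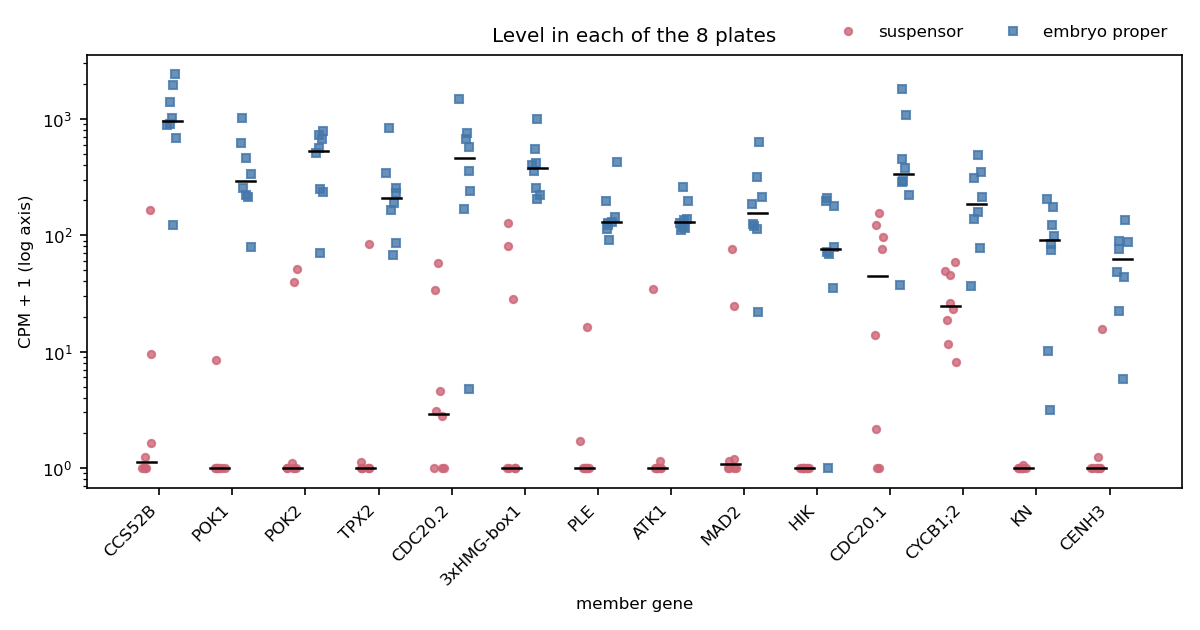
Level of 14 members (x axis) in each of the 8 plates, as CPM + 1 on a log axis, for the suspensor (red circles) and the embryo proper (blue squares), with black bars at the medians. POK1 was at 0 on 7 plates in the suspensor and between 77.9 and 1022 CPM in the embryo proper, and of these 14 only CYCB1;2 had reads in the suspensor on every plate.

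The B-type cyclins, which drive entry into mitosis, were lower in 7 of 9 cases. For this class and those below, the share of all genes called lower was 5.62%. CYCB1;4 (AT2G26760) had 1.21 CPM in the suspensor, against 79.1 CPM in the embryo proper, and CYCB1;3 (AT3G11520) had 3.30 CPM, against 98.9 CPM. CYCB2;2, AT4G35620 (2.49 CPM, against 60.2 CPM), CYCB2;4, AT1G76310 (3.70 CPM, against 126 CPM) and CYCB3;1, AT1G16330 (1.90 CPM, against 32.6 CPM) were lower too. CYCB2;1 had no read in any suspensor nucleus, against 18.8 CPM in the embryo proper, which makes it at least 371-fold lower with 3 counts over the suspensor as the limit. CYCB1;2 was called lower as well (24.8 CPM, against 183 CPM, adjusted p = 0.018), although the share of nuclei with a read was not below that of the embryo proper. It was present on every plate, between 7.16 and 58.3 CPM (median 23.6) in the suspensor, against between 35.7 and 486 CPM (median 184) in the embryo proper. Its call was lost without plate 3, 4, 5 or 6, with thinned nuclei (adjusted p = 0.065) and with equal numbers of nuclei. CYCB1;1, AT4G37490 (10.6 CPM, against 84.6 CPM, adjusted p = 0.18) and CYCB2;3, AT1G20610 (9.75 CPM, against 53.1 CPM, adjusted p = 0.21) did not pass the test.

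The A-type cyclins, which act from DNA replication to mitosis, were lower in 3 of 3 cases. CYCA2;4 (AT1G80370) had no suspensor read, against 90.6 CPM in the embryo proper, where it was found in 29.8% of nuclei, and was at least 1794-fold lower. In the thinned suspensor nuclei it was found in 0 of 100, which allows a share of nuclei with a read at this depth of up to 3% (3 counts of the total). CYCA2;3 had no suspensor read either, against 12.6 CPM in the embryo proper (at least 250-fold lower), and CYCA1;1 (AT1G44110) had 0.606 CPM, against 52.2 CPM. Only 1 suspensor nucleus in 100 had a read of any A-type cyclin. Of the 4 B-type CDKs, only CDKB1;2 (AT2G38620) was called (no suspensor read, against 36.2 CPM in the embryo proper). CDKB2;2 had 44.8 CPM in the suspensor, against 30.1 CPM in the embryo proper, and was lower on 2 of 8 plates (log2 difference 1.35 ± 1.67 SE, adjusted p = 0.71). Of its transcript 13.8% lies over a gene on the opposite strand, AT1G20925, which had 91.4 CPM in the suspensor, against 0.573 CPM in the embryo proper. Smart-seq2 does not mark strand, so reads of the shared part cannot be told apart. The other kinases, CDKB1;1, AT3G54180 (adjusted p = 0.66) and CDKB2;1, AT1G76540 (adjusted p = 0.091), did not pass, at 4.60 and 14.7 CPM in the suspensor, against 14.4 and 68.3 CPM in the embryo proper.

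Of the Aurora kinases, which control spindle assembly and chromosome attachment, AUR1, AT4G32830 (0.152 CPM, against 41.8 CPM in the embryo proper) and AUR2, AT2G25880 (1.16 CPM, against 70.7 CPM) were lower, and AUR3, AT2G45490 (1.55 CPM, against 25.4 CPM, adjusted p = 0.16) did not pass. The checkpoint genes and regulators of the anaphase-promoting complex were lower in 7 of 7 cases. CCS52B was the most abundant of them. In the suspensor it was between 0 and 163 CPM over the plates (median 0.119), against between 122 and 2408 CPM in the embryo proper (median 953), and it was lower on 8 of 8 plates. Over pooled nuclei it was 37.7-fold lower (adjusted p = 3.0e-52, which rests partly on a spread shared over genes). Of its suspensor counts 53.1% came from 1 nucleus of plate 7. CDC20.2 was between 0 and 56.2 CPM in the suspensor (median 1.93), against between 3.74 and 1467 CPM in the embryo proper (median 461), a 56.7-fold difference over pooled nuclei (adjusted p = 1.9e-13). Its neighbor CDC20.1 had more suspensor reads, between 0 and 154 CPM (median 43.9), against between 36.6 and 1801 CPM in the embryo proper (median 332), and was 8.03-fold lower (adjusted p = 1.2e-06). MAD2 was between 0 and 74.4 CPM in the suspensor (median 0.073), against between 20.9 and 625 CPM in the embryo proper (median 155, adjusted p = 2.0e-08). BUBR1 (AT2G33560) and BUB3.1 (AT3G19590), other checkpoint genes, had 0.219 and 2.81 CPM in the suspensor, against 79.6 and 41.8 CPM in the embryo proper. PANS1 (AT3G14190), a protector of sister chromatid cohesion, had 7.73 CPM, against 92.9 CPM.

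Among spindle and kinetochore genes 5 of 6 were lower. TPX2, which nucleates spindle microtubules, was at 0 on 6 plates of the suspensor and at 82.3 CPM on plate 4, against between 66.5 and 830 CPM in the embryo proper (median 208, adjusted p = 9.5e-15). ATK1 (AT4G21270), a minus-end directed kinesin that focuses spindle poles, was at most 33.7 CPM in the suspensor, against between 110 and 256 CPM in the embryo proper (median 129, adjusted p = 9.9e-09), and the plates did not overlap. ATK5 (AT4G05190), a relative of ATK1, had 7.61 CPM over pooled suspensor nuclei, against 123 CPM in the embryo proper. CENH3 reached 14.7 CPM on plate 4 of the suspensor and was at 0 on 6 plates, against between 4.86 and 134 CPM in the embryo proper (median 60.9, adjusted p = 0.0015). RSW7 (AT2G28620), a kinesin that slides spindle microtubules apart, was lower by 3.54-fold over pooled nuclei (45.7 CPM, against 162 CPM, adjusted p = 0.041). EDE1 (AT2G44190), a subunit of the microtubule-binding augmin complex in dividing cells, did not pass (9.28 CPM, against 14.4 CPM, adjusted p = 0.21).

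Among genes of the phragmoplast and cytokinesis 5 of 6 were lower. KN, the syntaxin that fuses vesicles at the cell plate, had 1 count in all suspensor nuclei, against 94.9 CPM in the embryo proper. By reads it was 5639-fold lower (95% counting interval 1012 to 222748, which treats reads as independent). HIK (AT1G18370), a kinesin needed for the phragmoplast to expand, had no suspensor read on any plate, against between 0 and 208 CPM in the embryo proper (median 74.7), and was at least 1805-fold lower. POK1 was at 0 on 7 plates of the suspensor and at 7.52 CPM on plate 4, against between 77.9 and 1022 CPM in the embryo proper (median 293, adjusted p = 2.0e-25). POK2 was at most 50.3 CPM in the suspensor, against between 68.6 and 786 CPM in the embryo proper (median 531, adjusted p = 1.5e-20). PLE was at most 15.4 CPM in the suspensor, against between 89.2 and 426 CPM in the embryo proper (median 128, adjusted p = 2.1e-09). The plates of the 2 groups did not overlap for POK1, POK2 or PLE. TES (AT3G43210), a relative of HIK, did not pass (48.3 CPM, against 126 CPM, adjusted p = 0.16).

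The factors of transcription and chromatin were split. 3xHMG-box1, whose protein sits on mitotic chromosomes, was at 0 on 5 plates of the suspensor and at most 126 CPM, against between 202 and 999 CPM in the embryo proper (median 379, adjusted p = 1.4e-12). MYB3R4 (AT5G11510), an activator of mitotic genes, was lower (5.00 CPM, against 67.5 CPM, adjusted p = 0.0084). MYB3R1, which activates or represses these genes, had 71.6 CPM in the suspensor, against 83.3 CPM in the embryo proper, and was lower on 4 of 8 plates (log2 difference −0.91 ± 1.29 SE, adjusted p = 0.75).

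A single suspensor nucleus held most of the suspensor reads of some members. This nucleus of plate 4 had 19 members at 100000 reads, and the next highest had 6. It held 1.21% of the suspensor reads and 18.2% of the member reads of the group. All POK1 reads, 99.8% of those of ATK1, 97.7% of those of PLE and 87.1% of those of TPX2 came from it. It held 1.52% of the CDC20.1 reads and no read of MYB3R1, TES or CYCB1;2. Some members rested on other nuclei, with most reads of the gene in 1 of them. For EDE1 (99.8%) and CYCB1;4 (98.6%) this nucleus was of plate 4. For CYCB2;4 (98.6%) and CDKB1;1 (96.0%) it was of plate 5. Whether genes of the same plate shared a nucleus is not given here. The nucleus with 19 members had 804023 counts, 4784 features, 8 of 13 suspensor markers, a suspensor score of 3.39 and a root pole score of 2.20. Without it TPX2 had 2.97 CPM and MAD2 12.7 CPM in the suspensor, and without the whole of plate 4 the test called 29 members lower.

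Other genes of the pathway were followed as 3 lists. Of 31 further mitosis and cytokinesis genes 30 were tested, and 7 were lower and 0 higher in the suspensor (by an unadjusted p under 0.05, 12 and 0), against the 5.62% and 3.88% of all genes. They were led by TAN, which marks the division plane (no suspensor read, against 67.7 CPM in the embryo proper, at least 1342-fold lower), the kinetochore gene CENP-C (3.40 CPM, against 120 CPM) and the phragmoplast kinesin gene PAKRP1L (4.68 CPM, against 92.7 CPM). The passenger complex gene WYR (67.1 CPM, against 260 CPM) and the microtubule plus-end gene EB1C (5.42 CPM, against 25.8 CPM) were also lower. Of 15 DNA replication genes 6 were lower and 0 higher (unadjusted, 10 and 1), among them RNR1 (14.4 CPM, against 117 CPM), PCNA2 (7.20 CPM, against 92.8 CPM), PCNA1 (2.59 CPM, against 59.1 CPM), TSO2 (0.657 CPM, against 82.1 CPM) and MCM6 (25.8 CPM, against 146 CPM). Of 18 genes of cell cycle exit and G1 phase 17 were tested. The inhibitor of cyclin-dependent kinases KRP5 was higher in the suspensor (105 CPM, against 2.95 CPM, higher on 6 of 8 plates, adjusted p = 0.0064, and 0.056 with equal numbers of nuclei), and the G1 cyclins CYCD3;2 (2.09 CPM, against 50.6 CPM) and CYCD3;3 (10.5 CPM, against 48.0 CPM) were lower. Whether these lists differ from one another or from the members was not tested.

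The root pole and the seed coat were compared with the same embryo-proper nuclei, so these 2 comparisons and that of the suspensor share these nuclei and are not independent. In the root pole 8 of 41 members were lower and 0 higher, against 0.945% of 17042 genes called lower and 0.334% called higher. At an unadjusted p under 0.05 these were 31 and 0 members, against 2856 genes lower and 237 higher. CCS52B (224 CPM, against 1161 CPM in the embryo proper), CDC20.1 (41.7 CPM, against 596 CPM), CDC20.2 (61.2 CPM, against 521 CPM), TPX2 (15.4 CPM, against 207 CPM) and CYCB2;4 (70.0 CPM, against 126 CPM) had the lowest p-values. CYCB2;4 had no root pole read on 7 of 8 plates, so its pooled level rests on 1 plate. The summed level in the root pole ran from 231 to 4085 CPM (median 2045), and the plates overlapped with those of the embryo proper. The median gene was itself lower by a fitted log2 difference of −2.40, with 3 to 9 root pole nuclei per plate. With equal numbers of nuclei that median was 0.02, and 1 member, CDC20.2, remained called (adjusted p = 0.011), against 0.0532% of all genes called lower and 0.279% called higher. Without plate 4 or plate 5 the count was 5 in each case.

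In the seed coat, a maternal tissue, 13 of 41 members were lower and 0 higher, against 1.36% of 18744 genes called lower and 1.07% called higher. At an unadjusted p under 0.05 these were 30 and 0 members, against 1462 genes lower and 985 higher. CCS52B (113 CPM, against 1161 CPM in the embryo proper), CDC20.1 (59.9 CPM, against 596 CPM), ATK1 (35.0 CPM, against 138 CPM), CYCB1;2 (9.28 CPM, against 183 CPM) and CYCB1;3 (1.94 CPM, against 98.9 CPM) had the lowest p-values. The summed level ran from 373 to 1754 CPM (median 1239) in the seed coat and stayed below every plate of the embryo proper. With equal numbers of nuclei 1 member, CCS52B, remained called (adjusted p = 9.8e-07), against 0.185% of all genes called lower and 1.55% called higher. CDC20.2, lower by the main test (fitted log2 difference −2.22, adjusted p = 0.028), then had a difference of 1.76, and at 100000 reads it was found in 32.8% of seed coat nuclei and 25.2% of embryo-proper nuclei. Without plate 3 the count was 8 and without plate 5 it was 7. When groups were taken from Leiden clusters instead of the marker score, 30 members were lower, against 710 genes lower and 163 higher. Only 32 of the 66 seed coat nuclei lay in the seed coat cluster, 22 in embryo-proper clusters, 5 in suspensor clusters and 7 in clusters without a group. Whether the marker-scored seed coat group holds embryo nuclei was not tested.

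Within the embryo proper, inner nuclei were compared with protoderm nuclei. In inner nuclei 1 of 41 members was lower and 0 were higher, against 0.394% of 16498 genes called lower and 0.164% called higher. At an unadjusted p under 0.05 these were 7 and 0 members, against 634 genes lower and 241 higher. The called member was CCS52B, with 944 CPM in inner nuclei, against 1351 CPM in protoderm nuclei, lower on 6 of 8 plates (log2 difference −1.91 ± 0.42 SE, adjusted p = 0.0017). DESeq2 called 4 other members lower and 1 higher, against 1231 genes lower and 486 higher. The CCS52B call was also lost with thinned nuclei, without the plate block and with Leiden clusters. With equal numbers of nuclei it was again the 1 member called (adjusted p = 0.020), against 0.226% of all genes lower and 0.126% higher. It was found in 45.6% of inner nuclei and 43.8% of protoderm nuclei. The count was 0 without plate 2, 3, 5 or 6 and 4 without plate 1. Summed over members, inner nuclei were between 1830 and 20601 CPM (median 3878), against between 1191 and 13511 CPM in protoderm nuclei (median 7541). The ranges overlapped, and the highest inner value, of plate 4, stood far above the next, 4771 CPM.

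**Figure D3:**
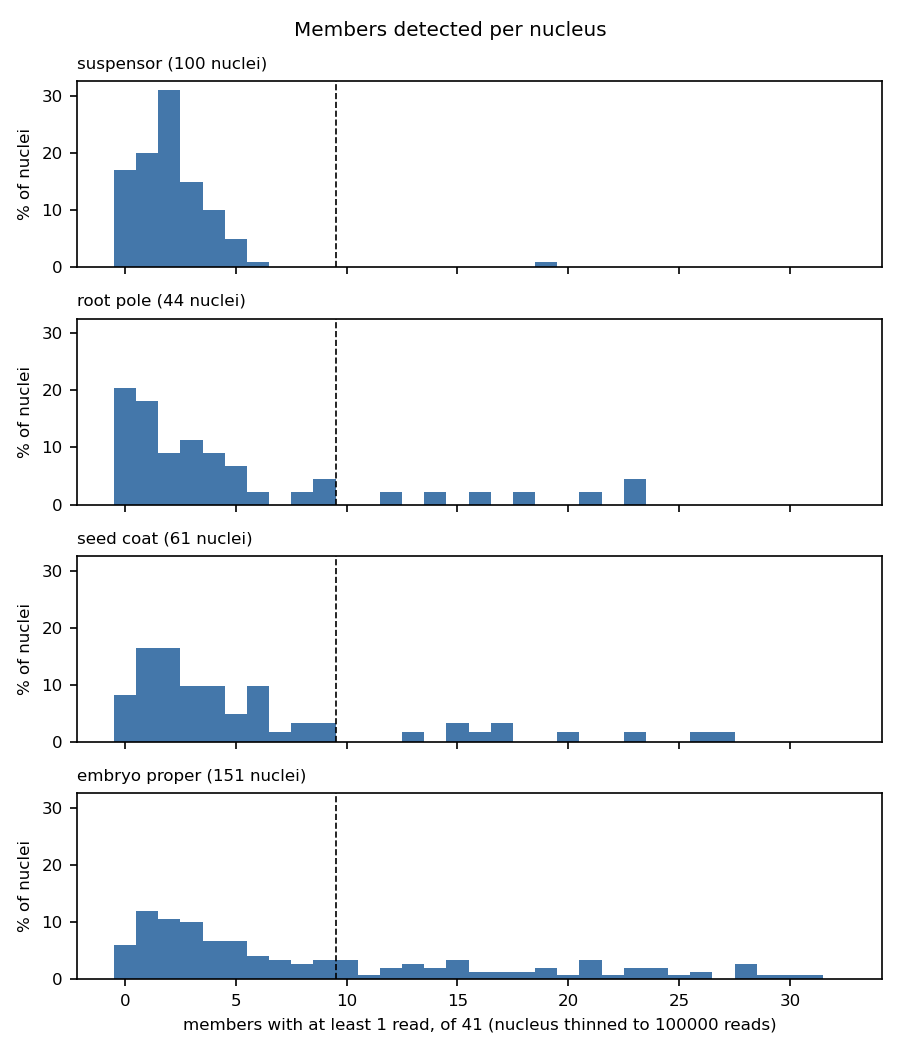
Number of members with at least 1 read in a nucleus (x axis, of 41, at 100000 reads) as percent of the nuclei of each group (y axis), for suspensor, root pole, seed coat and embryo proper from top to bottom. To the right of the dashed line are nuclei with 10 or more members, 1 of 100 in the suspensor and 53 of 151 in the embryo proper.

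The members were not spread evenly over nuclei. In the embryo proper 68 of 151 nuclei had 0 to 4 members and 35.1% had 10 or more (95% exact binomial interval 27.5 to 43.3%), up to 31 in 1 nucleus. The share with 10 or more was 1% in the suspensor (0.0253 to 5.45%), 15.9% in the root pole (6.64 to 30.1%) and 16.4% in the seed coat (8.15 to 28.1%). On the plates it ran from 20 to 50% in the embryo proper and was 0 on 7 of 8 plates in the suspensor. Within the embryo proper it was 30.9% in inner nuclei and 38.8% in protoderm nuclei, and the plates overlapped (12.5 to 62.5% in inner nuclei, 11.1 to 57.1% in protoderm nuclei). The limit of 10 was set on these data: 5 embryo-proper nuclei had 9 members and 5 had 10.

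**Figure D4:**
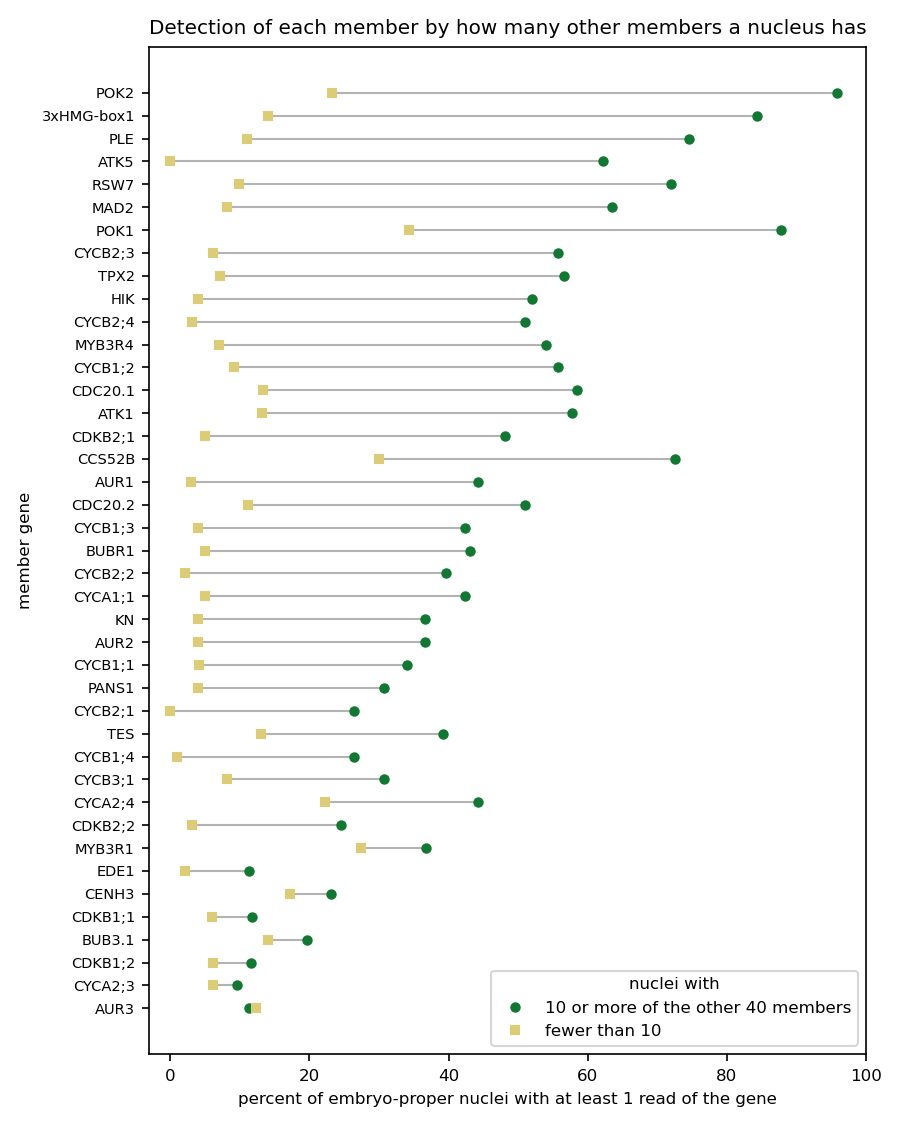
Percent of embryo-proper nuclei with at least 1 read of each member (rows), for nuclei with 10 or more of the other 40 members (green circles) and with fewer than 10 (yellow squares). POK2 was found in 95.8% of the nuclei with 10 or more and 23.3% of the rest, and AUR3 at the bottom in 11.3% and 12.2%.

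Members were found together. For each member, embryo-proper nuclei were divided by how many of the other 40 members they had, so that the gene itself did not place a nucleus. POK2 was found in 95.8% of the nuclei with 10 or more other members, against 23.3% of the rest. 3xHMG-box1 was found in 84.3%, against 14 of 100 nuclei, and PLE in 74.5%, against 11 of 100 nuclei. The 33 nuclei with reads of ATK5 and the 14 with reads of CYCB2;1 all had 10 or more other members. CCS52B, POK1 and CYCA2;4 were also found in many nuclei with few members, in 30.0%, 34.3% and 22.2% of them. Other members hardly followed the rest: MYB3R1 (36.7%, against 27.5%), CENH3 (23.1%, against 17.2%), CYCA2;3 (9.62%, against 6.06%) and AUR3 (11.3%, against 12.2%). These shares describe nuclei of 8 plates that differ in which reads were sampled, and they carry no test.

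**Figure D5:**
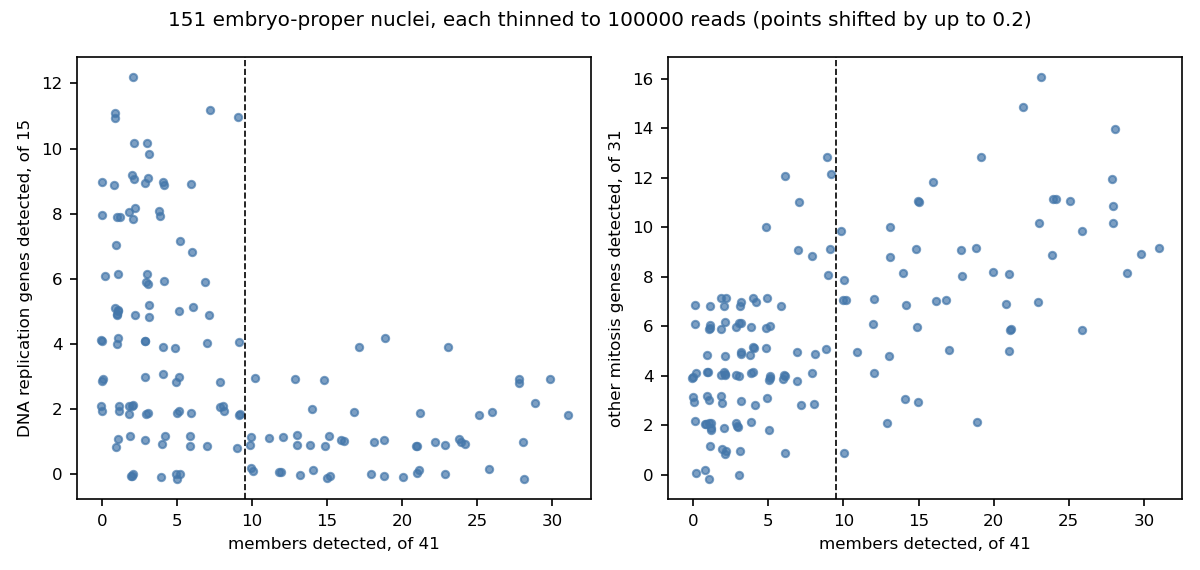
Each point is 1 of 151 embryo-proper nuclei at 100000 reads, with the number of members found (x axis, of 41) against the number of 15 DNA replication genes (left) and of 31 other mitosis genes (right), with the dashed line at 10 members. Nuclei right of the line had on average 1.23 replication genes, against 4.65 in those to its left, and 8.11 other mitosis genes, against 4.55.

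Nuclei rich in members were poor in transcripts of DNA replication. The 53 embryo-proper nuclei with 10 or more members had 1.23 ± 1.17 of the 15 replication genes (SD over nuclei), against 4.65 ± 3.25 in the other 98, and the mean was lower on 8 of 8 plates (0.75 to 1.78, against 3.67 to 7.56). ICU2, the catalytic subunit of DNA polymerase alpha, had reads in 9.43% of these nuclei, against 58.2% of the others. MCM7, a subunit of the replicative helicase, had reads in 17.0%, against 53.1%, and MCM5 in 9.43%, against 41.8%. The further mitosis genes went the other way, with 8.11 ± 3.21 of 31, against 4.55 ± 2.68, and a higher mean on 8 of 8 plates. The kinesin genes PAKRP1L (52.8%, against 5.10%) and PAKRP1 (49.1%, against 8.16%), TAN (41.5%, against 1.02%) and RUK (45.3%, against 8.16%) had the largest differences among the 31, named after their values were seen. Others of the list differed less, such as MAD1 (37.7%, against 13.3%), CENP-C (30.2%, against 22.4%) and DRP1A (41.5%, against 37.8%). Some went the other way, such as CCS52A2 (1.89%, against 15.3%), CCS52A1 (3.77%, against 8.16%), NUF2 (22.6%, against 24.5%) and MAP65-1 (26.4%, against 30.6%). The nuclei with 10 or more members had 2332 features at 100000 reads (median), against 2065 in the others, and 4.34 of 15 seed coat markers on average, against 3.96. The part of these values in the pattern was not tested.

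Some levels are uncertain because the genes share sequence. CDC20.1 and CDC20.2 are neighbors whose transcripts share 31.4% and 34.0% of their 50-base words. Among embryo-proper nuclei 21 had only CDC20.1, 15 only CDC20.2 and 23 both. CYCB1;2 shares 11.8% of its 50-base words with other genes, most of all AT1G34460. CYCB2;3 shares 17.3%, most of all with AT1G20590. Levels of AT1G34460 and AT1G20590 are not given here. Overlap with a gene on the opposite strand covers 36.9% of the transcript of AUR2, 22.4% of 3xHMG-box1, 19.8% of CCS52B, 19.2% of AUR1, 15.2% of CDKB1;2 and 12.3% of ATK5, and KN is overlapped as well. AT4G05200, which overlaps ATK5, had 0.0168 CPM in the suspensor, against 8.51 CPM in the embryo proper. The partner of CCS52B, AT5G02105, had 0.0168 CPM in the suspensor and no read in the embryo proper, and that of AUR2, AT2G25890, had none in the suspensor and 0.224 CPM in the embryo proper. The partners of CDKB1;2 (AT2G38630) and 3xHMG-box1 (AT4G11070) were at a lower level in the suspensor, as were CDKB1;2 and 3xHMG-box1, with 7.83 and 1.78 CPM in the suspensor, against 45.5 and 8.70 CPM in the embryo proper, and reads of the shared parts cannot be told apart. The partners of KN (AT1G08550) and AUR1 (AT4G32840) had 25.8 and 63.3 CPM in the suspensor, against 36.5 and 47.8 CPM in the embryo proper, while KN and AUR1 themselves were close to 0 in the suspensor.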

How the data were processed

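Per the file headers and the study's methods, the deposited tables hold Kallisto estimated counts per gene and nucleus (whole numbers, not normalized), made by the authors from reads trimmed with cutadapt 2.6 and mapped to TAIR10 transcripts of Ensembl Plants. How transcripts were summed to genes is not given in the sources used here. Index tables were not used. The members, marker lists and other lists were chosen with earlier results of these data known.

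Nuclei with at least 100000 counts and 1000 features were kept. Each marker found in at least 10 nuclei was standardized as log2(CPM + 1), capped at 3 and −3, and summed over its list, divided by the square root of the number of markers. A nucleus took the list with the highest score if this was at least 1 and led every other group by 0.5. Each well received 1 nucleus and no doublet caller was run.

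Counts were summed per group and plate (at least 3 nuclei each, 8 plates in every main comparison) and tested two-sided by the quasi-likelihood F test of edgeR 4.0.16 (R 4.3.3) after its filter on low counts and TMM scaling, and the plate was kept as a block since both groups of a pair come from the same plate. Standard errors are the fitted difference over the square root of F. The 8 plates are the replicates, and nothing says that they came from separate plants, so p-values measure the spread between plates. This spread is estimated partly from all genes together. A very small p-value therefore does not rest on the 8 plates of its own gene alone. Marker genes were left out of counts over the whole table. The test was checked on simulated counts. There edgeR missed most of the decreases short of the largest, and those it missed were many-fold. DESeq2 found most decreases but called far more of the unchanged genes than edgeR, so its higher counts of calls are less strict. A gene that did not pass is not shown to be unchanged. Alternatives were DESeq2 1.42.0, no filter, no TMM factors, no block, thinned nuclei, stricter limits, a stricter score, Leiden clusters (scanpy 1.11.5), leaving out each plate and, added after seeing the data, equal numbers of nuclei. The equal numbers came from a single random draw per comparison. Plate values were given in full for the members with the 10 lowest adjusted p-values between suspensor and embryo proper, the 10 with the highest level per kilobase, TPX2 and MAD2; up to 5 were named in other comparisons and lists, and others were named after their values were seen. Sequences and positions come from RefSeq's TAIR10.1, whose nuclear chromosomes have the lengths of TAIR10.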

Additional observations from a re-analysis of the deposited data

Results flagged for a closer look

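A plate far from the other 7 was looked for in 43 sets of plate values (summed level and share of nuclei with 10 or more members by group, and the level of each of the 14 plotted members in the suspensor and the embryo proper), with Dixon's ratio above its 95% critical value for 8 values. In 13 of these sets 1 plate stood apart, and it was plate 4, 5 or 7 in each. Chance gives about 1 in 20 sets, but this rate does not hold for sets that are at 0 on most plates, as many suspensor sets are. In inner nuclei the summed level of plate 4 was 20601 CPM, against a next highest of 4771 CPM.

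In the suspensor plate 4 stood apart in the share of nuclei with 10 or more members (3.33%, against 0% elsewhere) and in the levels of POK1 (7.52 CPM), TPX2 (82.3 CPM), PLE (15.4 CPM), ATK1 (33.7 CPM), MAD2 (74.4 CPM), KN (0.0611 CPM) and CENH3 (14.7 CPM). Most of the POK1, TPX2, PLE and ATK1 reads came from 1 nucleus. Plate 7 stood apart in CCS52B (163 CPM, next 8.44 CPM). In the embryo proper plate 5, with 10 nuclei, was highest in TPX2 (830 CPM, next 341 CPM), 3xHMG-box1 (999 CPM, next 547 CPM) and PLE (426 CPM, next 197 CPM).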

How the results depend on the processing

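Among the members named by rule none changed direction under the alternatives run, and CDC20.2 in the seed coat, named after its values were seen, did with equal numbers of nuclei. For the suspensor, the count of lower members was 32 by the main test, 26 to 31 with 1 plate left out, 21 without the plate block (34 members tested) and between 23 and 38 under the other alternatives, and every one of the 32 was among the 38 that DESeq2 called. For inner against protoderm nuclei the count was 1, 0 to 4 with 1 plate left out, 0 without the block, with thinned nuclei and with Leiden clusters, 3 with stricter limits on nuclei and with the stricter score, and 4 with DESeq2, which did not include CCS52B. For the root pole it was 8, 5 to 12 with 1 plate left out, 1 without the block and with equal numbers of nuclei, 5 with stricter limits, 21 with Leiden clusters and 28 with DESeq2. For the seed coat it was 13, 7 to 15 with 1 plate left out, 4 without the block, 1 with equal numbers of nuclei, and 30 with both Leiden clusters and DESeq2. The causes were not tested. In the whole table DESeq2 called 3351 genes lower and 1947 higher in the suspensor, against 1035 and 715 by edgeR, and the fit without the block 448 and 380. For the root pole DESeq2 called 3726 lower and 402 higher, and Leiden clusters gave 3533 and 43, against 161 and 57 by the main test. For the seed coat these were 2019 and 1559 with DESeq2 and 710 and 163 with Leiden clusters, against 254 and 201. For inner against protoderm nuclei DESeq2 called 1231 lower and 486 higher, against 65 and 27. The share of nuclei with 10 or more members stayed within its interval in suspensor, root pole, seed coat and embryo-proper nuclei without thinning, at 200000 reads, with stricter limits and with the stricter score, and was not computed under the others. Depth limits absence: 0 of 100 nuclei with a read allows up to 3%.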

Other observations

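Reads of the GFP transgene, which the sort selected for by its protein, were found in 8.91% of suspensor nuclei (95% exact binomial interval 4.16 to 16.2%), 8.33% of root pole nuclei, 12.1% of seed coat nuclei and 25.7% of embryo-proper nuclei (18.9 to 33.4%). The 165 nuclei without a group had fewer features (median 1700, against 2457 in the embryo proper). At 100000 reads 14.1% of them had 10 or more members (8.94 to 20.7%), with a median of 2 members. Every member was found in a smaller share of them than of embryo-proper nuclei. The same count over all genes is not given here, so this is not a result about the members.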
